A study of Mus musculus with 2 samples.

Results

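A set of 10 receptor genes of the cerebral cortex was examined in RNA-Seq data from Rbfox3-/- (KO) and wild-type (WT) mice. They were 6 serotonin receptor genes (Htr1a, Htr1b, Htr1f, Htr2a, Htr2c and Htr4), 3 muscarinic acetylcholine receptor genes (Chrm1, Chrm2 and Chrm3) and the cannabinoid receptor gene Cnr1. They were chosen by gene symbol, and these 10 were found among the 37303 genes of the deposited table. Their isoforms, 21 of 90835 in the deposited isoform table, were found by the same gene identifiers. The series holds 1 KO library and 1 WT library. Both came from male P56 mice, of which the cerebral cortex of the right hemisphere was taken, according to the study's methods. The labels name cerebral cortex as the source of both, but the note on extraction there allows for hippocampus too. The RNA kit also differs, being NucleoSpin in the labels and RNeasy in the methods. KO mice were homozygous for the Rbfox3 tm1a (EUCOMM) allele on C57BL/6N, an allele carried in all tissues, and WT mice were their littermates. The labels give the strain of both as B6 and do not say how many mice each library came from. Rbfox3 encodes the neuronal splicing factor also known as NeuN. The question put to these genes was whether receptor transcripts, and the isoforms they are made of, differed between KO cortex and WT cortex. With 1 library of each genotype there was no replicate error and no test, so the differences below describe these libraries only.

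Levels are FPKM, fragments per kilobase of transcript, scaled to the mapped fragments of the library, so levels of different genes are compared per length. The log2 ratio is log2 of (KO + 1) over (WT + 1) FPKM, which understates the difference of genes with low values. It was read for the 13042 genes whose mean of both libraries was at least 1 FPKM, and a gene was called higher or lower where it was at least 0.32 above or below 0. The targeted gene went with the labels: Rbfox3 had 6.46 FPKM in KO cortex, against 57.3 FPKM in WT cortex, 8.87-fold lower. Its relatives had similar levels in both libraries, with 122 FPKM in KO and 112 FPKM in WT for Rbfox1, and 49.3 FPKM in KO and 45.2 FPKM in WT for Rbfox2. Markers of cortical pyramidal neurons were abundant in both, such as Camk2a with 402 FPKM in KO and 408 FPKM in WT. Markers of the choroid plexus and of striatal neurons, some of which cortical neurons also express, were lower in the KO library than in the WT library, as detailed beside the receptors below. The number of fragments per library is unknown. In 1951 genes with low values and a single isoform, the value of KO over WT seen most often was 0.888. If that is the worth of single fragments, it puts the KO library at 1.13 times the depth of the WT library.

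These receptors all belong to the G protein-coupled class and carry the slow, modulatory signals of serotonin, acetylcholine and endocannabinoids in the cortex. Htr1a, Htr1b, Htr1f, Chrm2 and Cnr1 couple to Gi/o proteins, which lower cyclic AMP and open potassium channels of the GIRK type. Htr2a, Htr2c, Chrm1 and Chrm3 couple to Gq, which activates phospholipase C, releases calcium from stores and closes the potassium channels that carry the M current. Htr4 couples to Gs, which raises cyclic AMP. Serotonin reaches the cortex from the raphe nuclei and acetylcholine mostly from the basal forebrain, so that the receptors, and not the enzymes that make the transmitters, are mainly transcribed by cortical cells. Htr2c is also known for strong expression in the choroid plexus, the epithelium that makes cerebrospinal fluid. Its transcript is both alternatively spliced and edited from adenosine to inosine.

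The alternative stretch of Htr2c is shown because it is where the isoforms of this receptor differ in the protein they encode. It forms the last 95 bases of exon 5 of Htr2c-201, is coding sequence on the plus strand at chrX:147169676-147169770 (GRCm38, GENCODE transcripts), and is spliced out in Htr2c-207. Of the 7 annotated transcripts of the gene, 2 contain it. Since 95 bases leave a remainder of 2 on division by 3, leaving them out shifts the reading frame. The capitals mark the 5 adenosines known to be edited, and the sequence is given with them unedited.
Htr2c alternative stretch: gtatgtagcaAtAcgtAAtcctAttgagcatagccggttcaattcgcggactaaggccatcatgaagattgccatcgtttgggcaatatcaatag
The deposited isoform table gives no transcript identifiers and the files hold no base calls, so neither the use of this stretch nor its editing could be read from them. The editing enzymes were measured: Adar had 28.6 FPKM in KO and 28.7 FPKM in WT, and Adarb1 had 34.1 FPKM in KO and 29.1 FPKM in WT (log2 ratio 0.22).

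RBFOX proteins bind the RNA sequence UGCAUG, written TGCATG in DNA letters. This motif was searched on the sense strand of the longest coding transcript of each receptor gene. It was found 17 times in 7 of the 10 genes, always in the 3′ UTR. Htr2a and Htr2c had 4 sites each, Chrm1 and Cnr1 3 each, Htr1b, Htr4 and Chrm2 a single site each, and Htr1a, Htr1f and Chrm3 had 0. Among the longest coding transcripts of 21901 genes, 51.6% held the motif. Among those of 80 to 120% of the receptor's own length the share was 77.2% for Htr2a, 73.3% for Htr2c and 69.5% for Chrm3. Over the 10 receptors it ran from 50.2% for Htr1f to 80.9% for Chrm1, so the motif is common at these lengths. The mean number of sites in transcripts of like length was 1.60 for Htr2a and 1.42 for Htr2c, below the 4 of each. It was also below the 3 sites of Chrm1 (mean 1.84) and Cnr1 (mean 1.69). For the other receptors the mean was above the number found. It was 1.38 for Htr1b, 1.36 for Htr4 and 1.62 for Chrm2, with a single site each. For Htr1a, Htr1f and Chrm3, with 0 sites, it was 1.31, 0.740 and 1.27. Introns were not searched, and a match is not a binding site. The sites of the Gq-coupled serotonin receptors are shown, with the motif in capitals, because they had the most sites. All lie on the plus strand of GRCm38.
Htr2c site 1, chrX:147195544-147195573: caaagtgaaattTGCATGttgagccttatt
Htr2c site 2, chrX:147196427-147196456: ggtcagttgaacTGCATGttaaaacaatta
Htr2c site 3, chrX:147196545-147196574: cagatggtgctgTGCATGtaacaccatgta
Htr2c site 4, chrX:147196566-147196595: caccatgtatgtTGCATGagtccactgatc
Htr2a site 1, chr14:74707434-74707463: caggcaccacggTGCATGgctgtaatccta
Htr2a site 2, chr14:74707530-74707559: gccaatgtggacTGCATGagagactctgtc
Htr2a site 3, chr14:74707922-74707951: tgaatcaaagatTGCATGtaatgcataaaa
Htr2a site 4, chr14:74708760-74708789: aacatacacatgTGCATGtttgaatcatgt
The log2 ratios of the genes with 4 sites were -0.41 for Htr2c and -0.01 for Htr2a. Those of the genes with 0 sites were 0.13 for Htr1a, 0.17 for Htr1f and 0.43 for Chrm3. In between, the genes with 3 sites had 0.17 (Chrm1) and 0.10 (Cnr1). The genes with a single site had -0.10 (Htr1b), -0.25 (Chrm2) and -0.35 (Htr4, under the minimum mean), so the ratios did not follow the number of sites in order. A relation between the motif and the levels was not tested. The gene model of Htr2a in the deposited table ends at position 74706859 of chromosome 14, before all 4 of its sites, so its FPKM does not cover them. Likewise the single site of Htr1b, at chr9:81630266-81630295, lies outside its model, which begins at position 81631343.

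Most of the receptor genes had similar levels in KO cortex and WT cortex. Of the 10, 9 had a mean of at least 1 FPKM, and Htr4 did not. Chrm3 was the only one of the 9 called higher in KO and Htr2c the only one called lower. Over all 13042 genes, 6.95% passed this threshold upward and 5.52% downward, so 1 of 9 in each direction is near the background. None of the 9 differed by 2-fold, against 0.491% of all genes higher and 0.583% lower by this measure. The log2 ratio was above 0 for 5 receptors and below 0 for 4, from -0.41 for Htr2c to 0.43 for Chrm3. Their median log2 ratio was 0.10, against 0.02 for all genes, of which 54.4% lay above 0. The plot of levels by receptor shows the values in both libraries.

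**Figure D1:**
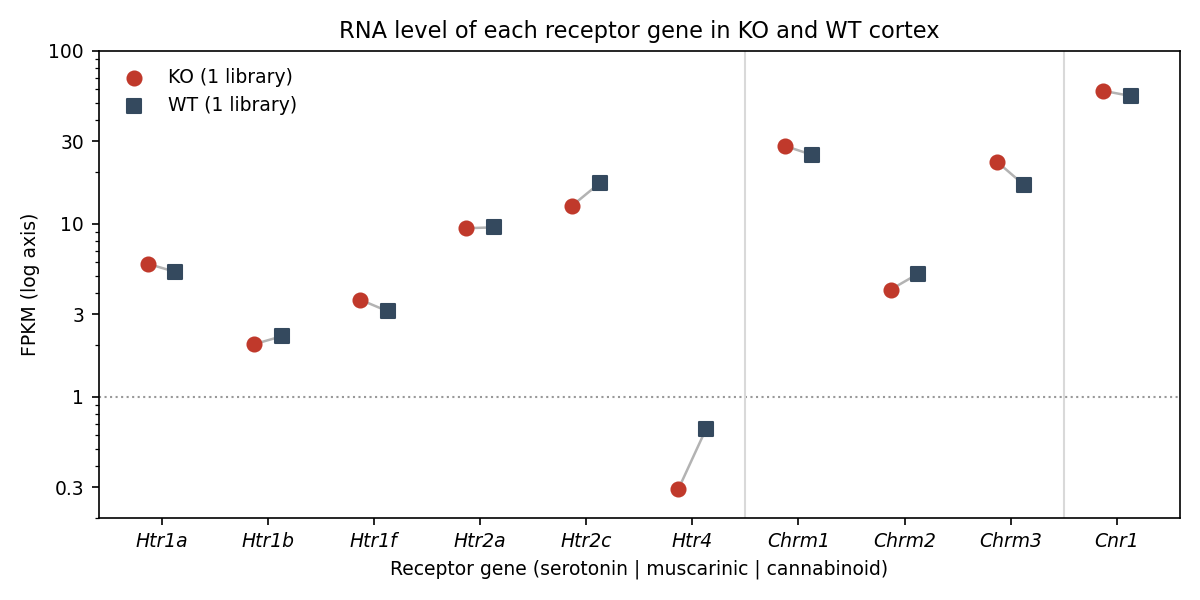
FPKM of each receptor gene on a log axis, with the KO library as a circle on the left of each pair and the WT library as a square on the right. Levels run from 0.294 FPKM in KO and 0.653 FPKM in WT for Htr4 to 58.7 FPKM in KO and 54.8 FPKM in WT for Cnr1, and the pairs of Htr2c and Chrm3 slope in opposite directions.

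The order of the levels was the same in both libraries but for a single exchange. Cnr1 was highest and Chrm1 next in KO and in WT. Chrm3 came before Htr2c in KO and after it in WT, where they lay close together at 16.7 and 17.2 FPKM. Htr2a, Htr1a, Chrm2, Htr1f, Htr1b and Htr4 then followed in both libraries. Whether neighbours in this order differ could not be judged, as each level was measured once per genotype.

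The Gi/o-coupled serotonin receptors showed small differences in either direction. Htr1a, the somatic and dendritic inhibitory receptor of pyramidal neurons (ENSMUSG00000021721, chr13:105443693-105448133), had 5.87 FPKM in KO and 5.27 FPKM in WT, a log2 ratio of 0.13. Htr1f, a receptor activated by lasmiditan (ENSMUSG00000050783, chr16:64924729-65105784), had 3.65 FPKM in KO and 3.13 FPKM in WT, a log2 ratio of 0.17. Neither reached the threshold. Htr1b, the presynaptic receptor that limits transmitter release (ENSMUSG00000049511, chr9:81631343-81632615), had 2.01 FPKM in KO and 2.24 FPKM in WT, a log2 ratio of -0.10. The central 95% of genes with a mean of 1 to 5 FPKM spread from -0.57 to 0.54 on this scale, so Htr1b and Htr1f lay well inside the range of genes of their level. The Htr1b gene model of the deposited table spans 1273 bases, against 5538 bases in GENCODE, so its value rests on a part of the transcript.

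The Gq-coupled serotonin receptors differed from each other. Htr2a, the main excitatory serotonin receptor of cortical pyramidal neurons and a target of psychedelic and antipsychotic drugs (ENSMUSG00000034997, chr14:74640840-74706859), had 9.43 FPKM in KO and 9.54 FPKM in WT. Its log2 ratio of -0.01 was the closest to 0 of all the receptors. Htr2c (ENSMUSG00000041380, chrX:146962513-147197277) had 12.8 FPKM in KO and 17.2 FPKM in WT, 1.35-fold lower in KO with a log2 ratio of -0.41. Of the 6561 genes whose mean reached 10 FPKM, 3.84% were called lower. In the 3987 genes between 10 and 30 FPKM, the central 95% of log2 ratios ran from -0.37 to 0.44, and Htr2c lay below it. The level of Htr2c was 1.35 times that of Htr2a in KO and 1.81 times in WT. It made up 37.5% of the summed FPKM of the 6 serotonin receptor genes in KO and 45.3% in WT. The sum itself was 34.01 FPKM in KO and 38.08 FPKM in WT, and the difference in Htr2c, KO minus WT, was -4.49 FPKM.

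Htr4, the Gs-coupled serotonin receptor on chromosome 18 (ENSMUSG00000026322), was the least abundant of the 10. It had 0.294 FPKM in KO and 0.653 FPKM in WT, 2.22-fold lower in KO as a plain ratio. With both values under 1 FPKM it was outside the genes for which calls were made. Its log2 ratio on the scale used here was -0.35.

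Htr2c and Htr4 were lower in the same library in which markers of neighbouring tissues were lower. Of 12 choroid plexus markers, 12 were lower in KO, and their summed level was 7.08 FPKM in KO and 235 FPKM in WT. None was at 0 in either library. Ttr, the transthyretin gene and the most abundant of them, had 3.71 FPKM in KO and 221 FPKM in WT. The next were Kcnj13, a potassium channel, with 0.882 FPKM in KO and 3.40 FPKM in WT, and Kl, which encodes klotho, with 0.955 FPKM in KO and 3.01 FPKM in WT. Folr1, Clic6, Sostdc1, Kcne2, Prlr, Otx2, Cldn2, Aqp1 and Slc4a5 ranged from 0.0122 to 0.456 FPKM in KO and from 0.275 to 1.44 FPKM in WT. The part of choroid plexus RNA in the Htr2c difference was not tested.

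Striatal neuron markers were also lower in the KO library than in the WT library. Of 13, 13 were lower in KO, with a summed level of 105 FPKM in KO and 254 FPKM in WT. Of the 12 above the minimum mean, 12 were called lower, against 5.52% of all genes. Penk, which encodes proenkephalin, had 13.2 FPKM in KO and 60.5 FPKM in WT. Adora2a, the adenosine receptor of indirect pathway neurons, had 0.353 FPKM in KO and 3.89 FPKM in WT, and Drd2, the dopamine receptor of the same neurons, 0.392 FPKM in KO and 3.44 FPKM in WT. The lower levels also covered Ppp1r1b, Tmem90a, Rgs9, Tac1, Pde10a, Drd1a, Gpr6 and Gng7, with log2 ratios from -1.51 to -0.43, and Ido1, which was under the minimum mean. Htr4 and Htr2c are also known to be expressed in the striatum. The part of striatal tissue in their differences was not tested, and fewer cells of a type and less RNA per cell cannot be told apart in bulk tissue. Chrm4, the muscarinic receptor known for high expression in striatal neurons, was not lower in KO, with 9.15 FPKM in KO and 6.33 FPKM in WT.

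**Figure D2:**
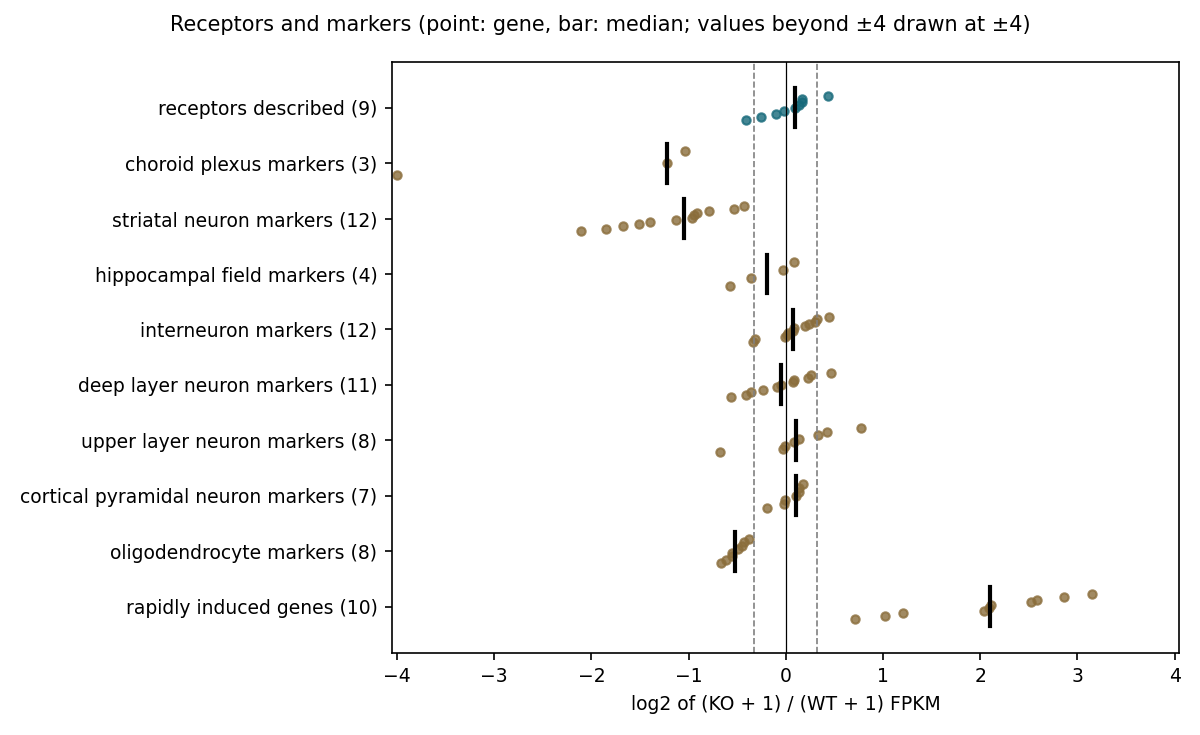
Log2 ratio of (KO + 1) over (WT + 1) FPKM for the 9 receptor genes above the minimum mean and for marker genes by list, with points for genes, bars for medians, dashed lines at 0.32 above and below 0 and the number of genes in brackets. The receptors spread around 0, between -0.41 and 0.43, while the choroid plexus list has a median of -1.23 over 3 genes, the striatal list of -1.05 and the rapidly induced genes of 2.10.

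The muscarinic receptors also differed in direction. Chrm1, the most abundant muscarinic receptor of the forebrain (ENSMUSG00000032773, chr19:8663789-8683587), had 28.2 FPKM in KO and 25.01 FPKM in WT, a log2 ratio of 0.17. Chrm3, which couples to Gq like Chrm1 (ENSMUSG00000046159, chr13:9877229-9878998), had 22.9 FPKM in KO and 16.7 FPKM in WT, 1.37-fold higher in KO with a log2 ratio of 0.43. This was the largest log2 ratio of the receptors. Of the genes whose mean reached 10 FPKM, 5.15% were called higher, and Chrm3 lay just inside the central 95% of those between 10 and 30 FPKM. Chrm2, the Gi/o-coupled autoreceptor of cholinergic terminals, also found on cortical neurons (ENSMUSG00000045613, chr6:36209620-36528414), had 4.17 FPKM in KO and 5.16 FPKM in WT. Its log2 ratio of -0.25 did not reach the threshold.

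The balance among the muscarinic genes went with these ratios. Chrm3 was at 5.48 times the level of Chrm2 in KO and 3.24 times in WT. It was at 0.810 times the level of Chrm1 in KO and 0.667 times in WT. The 3 genes summed to 55.3 FPKM in KO and 46.8 FPKM in WT. Chrm1 was the largest share of the sum in both libraries, with 51.1% in KO and 53.4% in WT. Chrm3 followed with 41.4% in KO and 35.6% in WT, and Chrm2 with 7.55% in KO and 11.0% in WT.

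The gene models limit these values. The Chrm3 model of the deposited table spans 1770 bases, while the annotated gene spans 485362 bases in GENCODE, so that its noncoding exons were outside the measurement. The longest coding transcript of Chrm3 has 4336 bases, so its value rests on a part of the transcript. On this minus strand gene the model begins at position 9877229 and GENCODE at 9875486, so sequence at the 3′ end was outside too. Overlapping models above 0 were found for Chrm1 and Chrm2. The 7SK model overlapping Chrm1 had 5.30 FPKM in KO and 2.54 FPKM in WT. For Chrm2, 9330158H04Rik had 0.792 FPKM in KO and 0.821 FPKM in WT. The Chrm2 model begins at position 36209620 of chromosome 6, against 36388084 in GENCODE, and spans 318795 bases, against 140331. The Htr4 model spans 143599 bases, against 172374 in GENCODE, with 1 isoform listed, against 4 annotated transcripts. Whether fragments were assigned by strand is not given in the sources used here. The 8 small RNA and other models overlapping Htr2c, among them Mir448 and Snora35, were at 0 in both libraries.

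Cnr1, the presynaptic receptor through which endocannabinoids reduce transmitter release (ENSMUSG00000044288, chr4:33924593-33948831), was the most abundant of the 10 receptors. It had 58.7 FPKM in KO and 54.8 FPKM in WT, a log2 ratio of 0.10, inside the -0.35 to 0.36 of the central 95% of genes with a mean of 30 to 100 FPKM. Cck, a peptide gene listed among the interneuron markers, was also near equal, with 296 FPKM in KO and 292 FPKM in WT. The cells its transcripts came from cannot be told apart in bulk tissue, so it does not report on the interneurons that express Cnr1. Interneuron markers as a list had a median log2 ratio of 0.08. Of the 12, 1 was called higher and 1 lower, against 6.95% of all genes higher and 5.52% lower. The highest were Slc17a8 (1.98 FPKM in KO, 1.19 FPKM in WT) and Pvalb (36.3 FPKM in KO, 28.9 FPKM in WT), and the lowest Sst (132 FPKM in KO, 167 FPKM in WT) and Npy (81.6 FPKM in KO, 102 FPKM in WT).

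**Figure D3:**
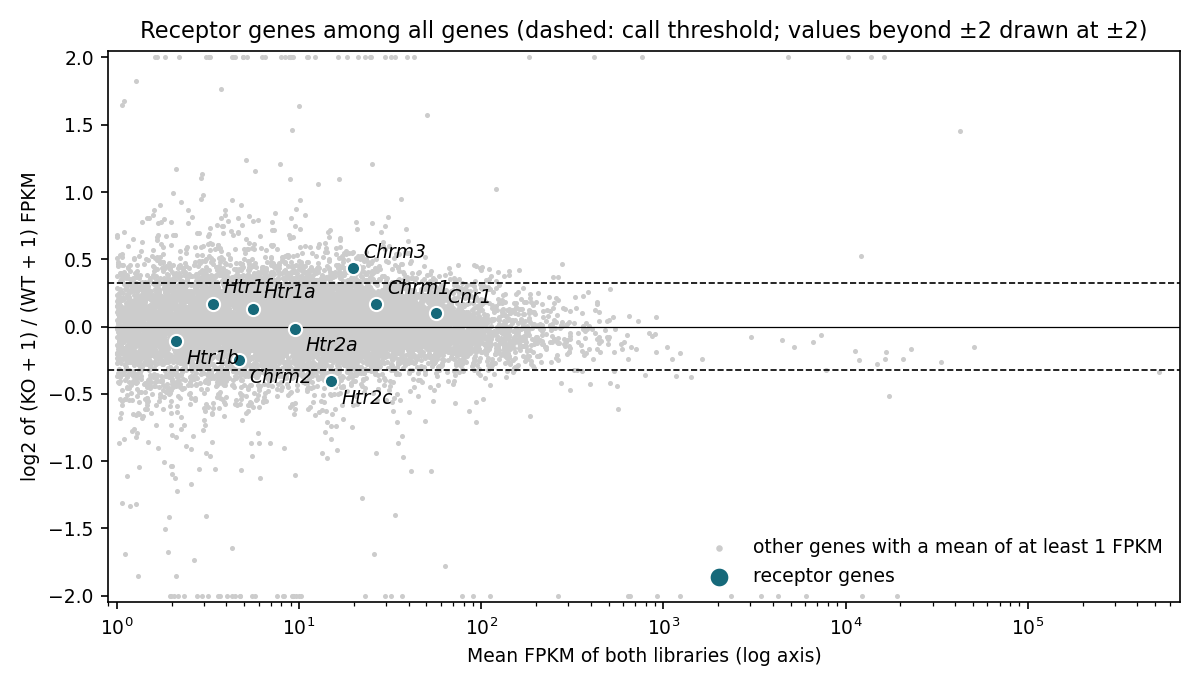
Log2 ratio of (KO + 1) over (WT + 1) FPKM against the mean FPKM of both libraries on a log axis, with the 9 receptor genes as large points among all genes above the minimum mean and dashed lines at 0.32 above and below 0. Chrm3, at 0.43, lies above the upper line and Htr2c, at -0.41, below the lower, and the other 7 lie between the lines.

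The proportions of the isoforms were close to equal in the libraries. A gene's isoform shift is 0.5 times the summed absolute differences of its isoform shares, so that 0 means equal shares and 1 means no shared isoform. Of the 10 receptor genes, 6 had 1 isoform in the table and 4 had more. None of these 4 had a shift of at least 0.2, against 11.3% of the 8677 genes that had 2 or more isoforms and reached 1 FPKM in KO and in WT. For so few genes, 0 of 4 is near the background. The shift was 0.0420 for Htr2c, 0.0186 for Cnr1, 0.0153 for Chrm1 and 0 for Chrm2, while the median of the 8677 genes was 0.0656. Chrm2 had only 1 isoform above 0, so its shift could not be other than 0.

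The lower level of Htr2c was found in both of its abundant isoforms. The first of its 7 isoforms in the table had 7.29 FPKM in KO and 10.6 FPKM in WT, 57.2% of the gene in KO and 61.3% in WT. The last had 5.03 FPKM in KO and 6.48 FPKM in WT, 39.4% of the gene in KO and 37.6% in WT. The other 5 were between 0 and 0.264 FPKM in both libraries. Chrm1 had isoforms of 19.2, 8.51 and 0.513 FPKM in KO, against 17.4, 7.44 and 0.178 FPKM in WT. Cnr1 had 44.8 and 13.9 FPKM in KO, against 42.8 and 11.9 FPKM in WT, and its last isoform was listed at 0 in both. The more abundant isoform of Cnr1 took 76.3% of the gene in KO and 78.2% in WT. For Chrm2 a single isoform held the whole level, the other being listed at 0.

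**Figure D4:**
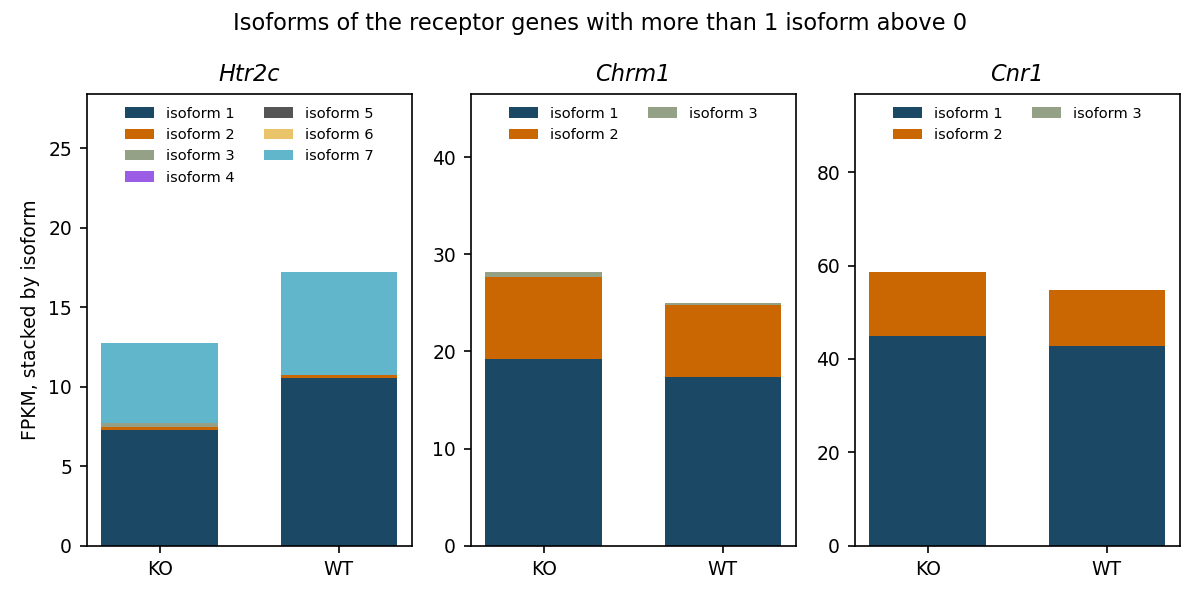
FPKM of the isoforms of Htr2c, Chrm1 and Cnr1, stacked in the order of the deposited table, with the KO library on the left and the WT library on the right of each panel. For Htr2c the bars are lower in KO for both abundant isoforms (7.29 FPKM in KO and 10.6 FPKM in WT for isoform 1), and for all 3 genes the proportions look alike, with shifts of at most 0.0420.

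Other receptors for the same transmitters that reached the minimum mean were called higher in KO or not called, and none was called lower. Of 8 other serotonin receptor genes, 4 reached a mean of 1 FPKM and 1 was called higher, against 6.95% of all genes. Ratios above 0 were found for 3 of the 4, against 54.4% of all genes. The gene called was Htr5a, a Gi/o-coupled receptor, with 6.56 FPKM in KO and 4.78 FPKM in WT (log2 ratio 0.39). Of all 8, without the minimum mean, 3 were lower in KO. The largest of the log2 ratios of the 8, in either direction, was -0.47 for Htr1d. It had 0.154 FPKM in KO and 0.602 FPKM in WT, both too low for a call. Htr3a, the serotonin-gated ion channel of a class of interneurons, had 2.85 FPKM in KO and 2.33 FPKM in WT. The Gs-coupled Htr7 and Htr6 had 4.32 and 0.956 FPKM in KO, against 4.15 and 1.11 FPKM in WT. Chrm4, a Gi/o-coupled muscarinic receptor, was called higher with a log2 ratio of 0.47, and Chrm5, Cnr2 and Gpr55 were under 1 FPKM in both libraries.

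Of 13 nicotinic receptor subunit genes, 5 reached a mean of 1 FPKM and 3 were called higher in KO, against 6.95% of all genes. Their median log2 ratio was 0.36, but 0.13 with a pseudocount of 5 FPKM and 0.04 over all 13 with no filter on low values. Chrna4 and Chrnb2, which together form the main heteromeric nicotinic receptor of the brain, had 9.15 and 10.2 FPKM in KO, against 6.38 and 7.55 FPKM in WT. Chrnb3 had 1.42 FPKM in KO and 0.887 FPKM in WT. Chrna7, which forms the homomeric receptor, had 5.63 FPKM in KO and 4.84 FPKM in WT, and Chrna5 had 1.12 FPKM in KO and 1.24 FPKM in WT.

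Of the genes that make, move and break down the transmitters, only Ache was called, against 6.95% of all genes higher and 5.52% lower. For serotonin, none of 4 was called, from Ddc, a decarboxylase, at 2.42 FPKM in KO and 2.73 FPKM in WT, to Maob, a monoamine oxidase, at 11.6 FPKM in KO and 10.8 FPKM in WT. Between them lay Maoa with 14.0 FPKM in KO and 14.0 FPKM in WT, and Slc18a2, the vesicular monoamine transporter, with 2.88 FPKM in KO and 2.77 FPKM in WT. For acetylcholine, Ache, which encodes acetylcholinesterase, was called higher with 16.5 FPKM in KO and 12.6 FPKM in WT, and Bche had 3.50 FPKM in KO and 3.51 FPKM in WT. Of the 6 acetylcholine genes in the table, 5 were lower in KO. They were Bche and, all under the minimum mean, Chat, Slc5a7, Prima1 and Colq, at 0.0989 to 0.501 FPKM in KO and 0.211 to 1.49 FPKM in WT. None of the 10 endocannabinoid genes was called, and their median log2 ratio was 0.02. The highest were Ptgs2 (6.53 FPKM in KO, 5.66 FPKM in WT) and Mgll, monoacylglycerol lipase (38.6 FPKM in KO, 34.5 FPKM in WT). The lowest were Abhd12, another hydrolase (98.4 FPKM in KO, 120 FPKM in WT), and Cnrip1, a protein that binds the tail of the Cnr1 receptor (34.4 FPKM in KO, 42.0 FPKM in WT).

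Against 6.95% of all genes higher and 5.52% lower, 2 of 12 genes downstream of Gq were called higher in KO and none lower. These were Kcnq3, a subunit of the M current channel that muscarinic receptors close (17.2 FPKM in KO, 11.4 FPKM in WT), and Itpr1, the calcium release channel (76.6 FPKM in KO, 57.7 FPKM in WT). Prkca, a protein kinase C gene with a ratio below 0, had 31.9 FPKM in KO and 32.4 FPKM in WT. None of 8 Gi/o pathway genes was called. The highest were the GIRK channel genes Kcnj9 (28.4 FPKM in KO, 24.5 FPKM in WT) and Kcnj6 (8.60 FPKM in KO, 7.54 FPKM in WT), and the lowest the G protein genes Gnai2 (36.3 FPKM in KO, 38.8 FPKM in WT) and Gnao1 (239.6 FPKM in KO, 238.4 FPKM in WT).

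Of 17 genes for Gs and cyclic AMP, 2 were called higher and 1 lower, against 6.95% of all genes higher and 5.52% lower. Adcy8 (8.08 FPKM in KO, 5.12 FPKM in WT) and Pde4d (23.6 FPKM in KO, 15.8 FPKM in WT), an adenylyl cyclase and a phosphodiesterase, were higher. Adcy5, the adenylyl cyclase abundant in the striatum, was lower (12.2 FPKM in KO, 19.2 FPKM in WT), and Gnal, the G protein that activates it there, had 26.3 FPKM in KO and 31.8 FPKM in WT. Of 19 receptor regulators, 2 were called higher and 3 lower, against the same shares of all genes. Rgs16 (3.47 FPKM in KO, 2.53 FPKM in WT) and Rgs8 (19.8 FPKM in KO, 15.6 FPKM in WT), which speed the turning off of G proteins, were the highest, and Rgs14 (7.24 FPKM in KO, 10.6 FPKM in WT) and Rgs10 (15.1 FPKM in KO, 21.5 FPKM in WT) of the same family the lowest. S100a10, which encodes p11, a partner of Htr1b and Htr4, was also called lower, with 16.7 FPKM in KO and 21.4 FPKM in WT.

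**Figure D5:**
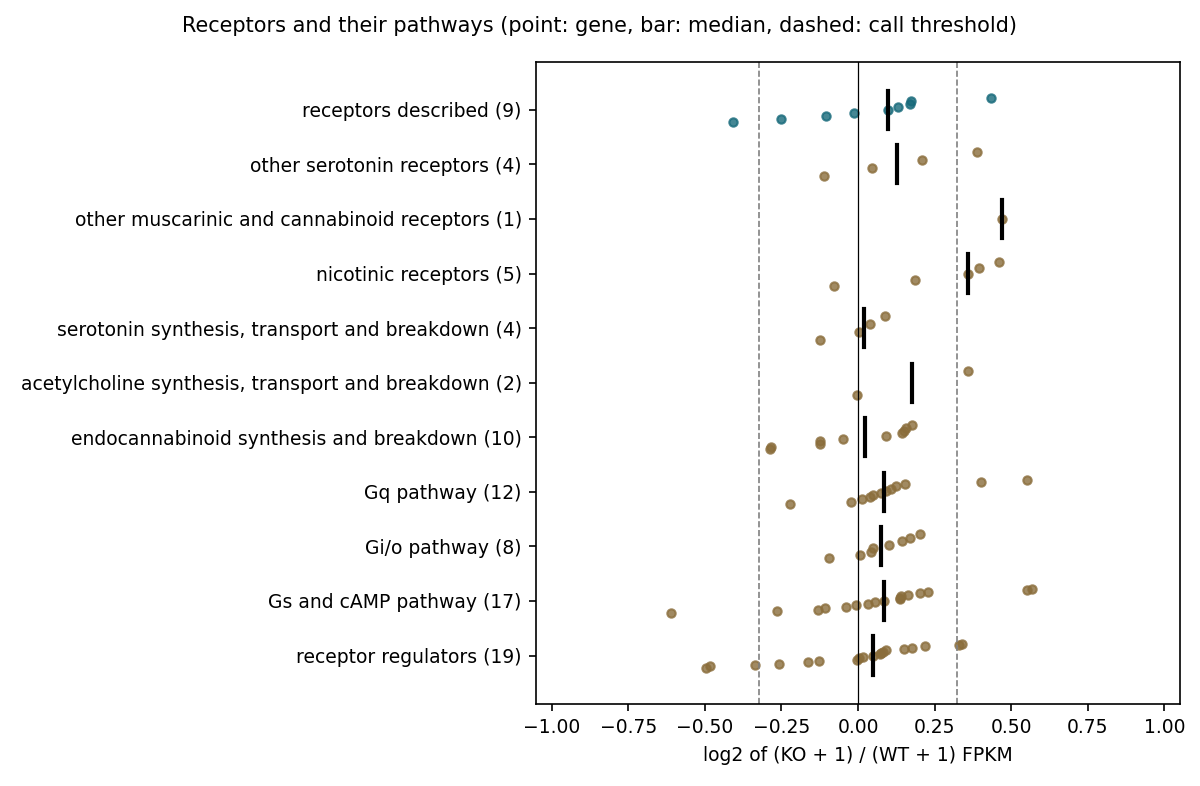
Log2 ratio of (KO + 1) over (WT + 1) FPKM for the receptor genes described, for other receptors of the same transmitters and for genes of their pathways, with points for genes, bars for medians, dashed lines at 0.32 above and below 0 and the number of genes in brackets. The medians lie between 0.02 and 0.18 for all lists but the nicotinic receptors (0.36) and the other muscarinic and cannabinoid receptors (0.47, Chrm4 alone).

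Cell type markers of the cortex were compared in the same way. Of all genes, 6.95% were called higher and 5.52% lower. Pyramidal neuron markers had a median log2 ratio of 0.11 with none of 7 called, from Nrgn (-0.19) and Camk2a (-0.02) to Tbr1 (0.14) and Neurod2 (0.18). Upper layer markers had 3 of 8 higher and 1 lower, led by Cux2 (0.77), with Mdga1 (-0.67) and Calb1 (-0.03) at the other end. Deep layer markers, of the layers in which Htr2c-expressing pyramidal neurons are known, had 1 of 11 higher and 3 lower. Their median log2 ratio was -0.04, with 5 above 0 and 6 below. Etv1 (0.47) and Fezf2 (0.26) were the highest of the deep layer markers and Rprm (-0.56) and Bcl11b (-0.41) the lowest. A relation between these markers and the level of Htr2c was not tested. Of 4 hippocampal markers above the minimum mean, 2 were lower, with Wfs1 (-0.58) and Fibcd1 (-0.35) lowest and C1ql2 (0.09) and Prox1 (-0.03) highest. Thalamus and brainstem markers had none of 4 called, from Lef1 (-0.22) and Prkcd (0.03) to Slc17a6 (0.11) and Tcf7l2 (0.28).

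Glial, vascular and rapidly induced genes also differed between the libraries. For the counts of calls, the shares of all genes were 6.95% higher and 5.52% lower. Of 8 oligodendrocyte markers, 8 were called lower in KO, with a summed level of 1053 FPKM in KO and 1543 FPKM in WT. Their log2 ratios ran from Mobp (-0.66) and Mbp (-0.61) to Mog (-0.38). Astrocyte markers had 1 of 6 lower, from Gfap (-0.47) and Aqp4 (-0.27) to Gja1 (0.07) and Aldh1l1 (0.27). Microglia markers had none of 6 called, from Tmem119 (-0.30) and Aif1 (-0.18) to Csf1r (0.03) and P2ry12 (0.09). Endothelial markers had 1 of 5 lower, from Cldn5 (-1.10) and Slco1c1 (-0.21) to Ly6c1 (-0.13) and Flt1 (-0.03). All 10 genes that neurons induce rapidly on activity were higher in KO, most of all Arc (3.15) and Fos (2.86) and least Fosb (0.71) and Egr1 (1.02). The part of these differences in the receptor levels was not tested.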

How the data were processed

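RNA-Seq had been done on 1 KO and 1 WT library of mouse cerebral cortex, made with a strand-specific kit per the labels. The submitters' processing notes name TopHat, Cufflinks and the GRCm38 genome, with versions not given in the sources used here. The deposited gene and isoform tables hold FPKM, which the authors computed per gene and per isoform. Their columns of fold changes, p-values and q-values, and the sheets derived from them, were not used. The number of fragments is unknown, so no interval for counting error was given. Where an FPKM of 0 was listed, no fold was computed.

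Log2 ratios were computed from the deposited FPKM with a pseudocount of 1 FPKM, where the mean of both libraries reached 1 FPKM, in Python 3.11.15 with pandas 2.3.3 and NumPy 2.4.6. Calls were made at a log2 ratio of 0.32 and at 2-fold on this scale, with no test, as there was 1 library of each genotype. Ratios and isoform shifts were tested on simulated data. The 23 gene lists and the 10 receptors were chosen with earlier results of these data known. Cck, Adar, Adarb1, S100a10, Htr1d and the acetylcholine genes under the minimum mean were chosen after their values were seen. Otherwise the rule was to name all receptors, every related receptor above the minimum mean, every choroid plexus and striatal marker, and the 2 highest and 2 lowest genes of each other list. The values of 4 genes this rule names are not reported here. Of the listed genes, 1 was not matched in the table, and for 2 symbols with 2 gene models the one with the GENCODE identifier was used. Gene spans and transcripts were taken from GENCODE vM21 on GRCm38. Alternatives were other pseudocounts, scalings and filters, and sums of the isoform values.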

Additional observations from a re-analysis of the deposited data

How the results depend on the processing

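Under pseudocounts of 0.1 and 5 FPKM, with the median of all genes set to 0, with upper quartile scaling and with sums of isoform values, 49 of 50 log2 ratios of single receptors kept their side of the threshold of 0.32, the exception being Htr4 with the pseudocount of 5 FPKM (-0.095), whose ratio was -0.93 with that of 0.1 FPKM. No receptor changed sign. The log2 ratio ran from -0.44 to -0.33 for Htr2c and from 0.36 to 0.45 for Chrm3. With no filter on low values, 2 receptors, Htr2c and Htr4, were past it in the downward direction, while the share of all genes past the threshold was 3.195% higher and 2.84% lower. These shares were 9.65% and 7.78% with the pseudocount of 0.1 FPKM, and 2.57% and 1.99% with that of 5 FPKM. The counts of receptors at 2-fold and with an isoform shift of at least 0.2 stayed at 0 under every alternative run. Of 161 list medians under alternatives, 141 moved by at most 0.1 and 19 by more. The remaining 1, that of the other muscarinic and cannabinoid receptors with no filter, also moved by more and was reversed from past the threshold of 0.32. The median of the other muscarinic and cannabinoid receptors turned to -0.062 and that of the acetylcholine genes to -0.22 with no filter, where genes under 1 FPKM entered them. List medians near 0 also changed sign, for deep layer markers (0.01 at a mean of at least 5 FPKM), for thalamus and brainstem markers (-0.002 with no filter) and, with upper quartile scaling, for the endocannabinoid (-0.006) and serotonin synthesis (-0.004) lists. The choroid plexus median, negative throughout, was -5.56 at a mean of at least 5 FPKM, -0.67 with no filter, and -1.83 and -0.51 with pseudocounts of 0.1 and 5 FPKM.

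No paired analysis was possible because each genotype had 1 library, and leaving out a library was not possible. The unknown depth and the single libraries limit statements on receptors at low levels, above all Htr4 and Htr1b.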
